A study of Bos taurus with 20 samples.

Results

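The complement system is represented here by 10 genes of its components and regulators, namely C1QA, C1R, C1S, C2, CFB, C3, C6, SERPING1, C4BPA and CD55. They were chosen by gene symbol, with earlier results of these data known. Every probe set that the annotation of the array assigns to 1 of these symbols was taken. This gave 15 probe sets, out of 9156 gene symbols and 24016 probe sets without controls. C1QA, C1R, C1S, CFB, C4BPA and CD55 have 1 probe set each, C2, C6 and SERPING1 have 2 each, and C3 has 3.

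Complement is a cascade of plasma and tissue proteins that tags microbes for uptake by phagocytes and can perforate their membranes. The classical pathway starts when C1q binds antibody or a bacterial surface and its attached proteases C1r and C1s cleave C4 and C2. The alternative pathway is an amplification loop in which factor B (CFB) joins deposited C3b to form an enzyme that cleaves more C3. Both meet at C3 and end in the terminal pathway, in which C6 is part of the membrane attack complex, and regulators hold the cascade back at several steps. Milk and mammary tissue hold complement proteins, which take part in the killing and uptake of bacteria in the udder.

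The arrays measured RNA of mammary tissue from 20 glands (the udder has 4 separate ones) of 5 mid lactating Holstein Friesian cows, 1 array per gland. In each cow 1 gland was not challenged (NC), and 3 glands were challenged with 100 cfu of a mastitis strain of Escherichia coli. Of these, 1 was left untreated (CNT), 1 was infused with 300 mg of the antibiotic cefapirin (CF), and 1 with 300 mg of cefapirin and 20 mg of the glucocorticoid prednisolone (CFPD). Cows 4 and 5 were sampled 24 h post challenge after infusions at 4 and 12 h, and cows 1, 2 and 3 were sampled 48 h post challenge after infusions at 4, 12, 24 and 36 h. Each group was thus measured in 2 cows at 24 h and in 3 at 48 h, all from cows whose other glands were infected, so that the NC glands are not those of healthy cows. NC was the right front and CNT the left front gland in every cow, so that position and challenge cannot be told apart. CF and CFPD were the rear glands in every cow. Treatment and rear position therefore cannot be told apart either, against CNT or against NC glands. As labelled, CF was the left rear gland in cows 2, 3 and 5 and the right rear gland in cows 1 and 4. CFPD was the other rear gland. The tissue is labelled as cisternal region, whereas the methods of the study name mid parenchyma.

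Values are log2 levels computed with RMA, on which a difference of 1 is a doubling. Array medians ranged from 7.13 to 7.31, and all values between 2.30 and 15.6. Markers of the secretory epithelium (caseins, LALBA, BTN1A1 and keratins) were all above the array median on some arrays, with summed levels of 17.14 to 17.55 over the 20 arrays. Which of the treated glands of cows 1 and 4 is CF and which CFPD is in doubt. Swapping the labels brings the arrays nearer to the fold changes tabulated with the study. Values follow the deposited labels. Calls of members that rest on them are also given with the labels exchanged, or without these 4 glands. Fits with the cow as a block, the wider complement genes and the marker lists were read under the deposited labels only. Called, below, is a probe set with an adjusted p (limma, Benjamini and Hochberg) under 0.05 that differed by 1 or more on the log2 scale. Of the 15 probe sets, 13 passed the filter on low values at 24 h and 11 at 48 h.

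The first comparison, of CNT with NC glands, asks how infected tissue differed from tissue that was not challenged. At 24 h, CFB was 14.7-fold and CD55 14.0-fold higher in CNT than in NC glands, while the 4 classical genes and C3 differed by no more than 0.26 on the log2 scale. At 48 h, CFB was 12.9-fold, C4BPA 19.6-fold, C1R 3.76-fold and C1S 2.46-fold higher. These were 2 of the 13 member probe sets tested at 24 h and 4 of the 11 tested at 48 h, and none was called lower. CD55 passed the filter at 24 h only through the 2 CNT glands in which it was high, so that its place in the count of 24 h was fixed by that, and CFB alone was called under a filter on the mean level. Among all probe sets tested, 1.62% were called higher at 24 h and 2.15% at 48 h. The median log2 fold change over the 10 genes was 0.18 at 24 h and 1.62 at 48 h, beside -0.05 and 0.01 over all 24016 probe sets without controls. At 48 h the 10 genes include C6 and CD55, which did not pass the filter there. Because the members were chosen with earlier results of these data known, these counts and medians do not test them as a set.

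**Figure D1:**
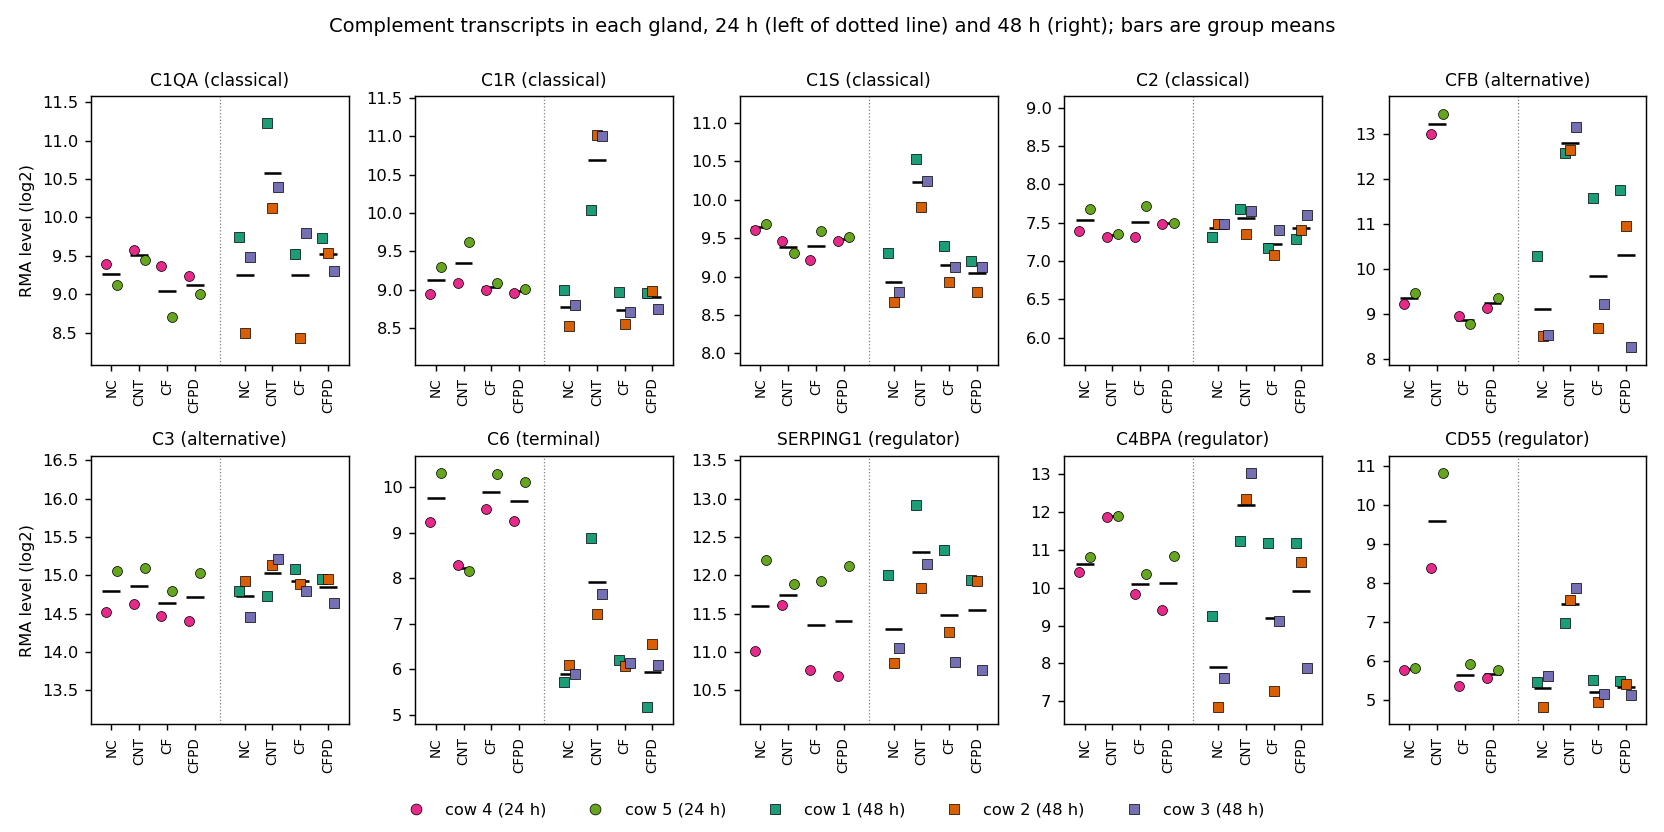
RMA levels (log2, vertical axis) of the 10 complement genes in each of the 20 glands, by group and time point. Points are glands, coloured by cow, and bars are group means. CFB lies at or above 12.59 in all 5 CNT glands, whereas C1R and C1S lie above all other glands in the 3 CNT glands of 48 h and not in those of 24 h. Each axis has its own range.

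Among the classical components, C1R encodes the protease that activates C1s. At 48 h its levels were 10.04, 11.02 and 11.01 in the CNT glands of cows 1, 2 and 3, and 9.0, 8.52 and 8.81 in their NC glands. Every CNT gland was above every NC gland. C1R was higher in 3 of 3 cows, with a log2 fold change of 1.91 (standard error, SE, 0.25, adjusted p = 0.00397). At 24 h, C1R was at 9.09 and 9.62 in the CNT and at 8.95 and 9.30 in the NC glands of cows 4 and 5, which overlap (log2 fold change 0.23, standard error 0.22, adjusted p = 0.602).

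C1S, the protease that cleaves C4 and C2, lies next to C1R in the genome, with no protein-coding gene between them in the RefSeq annotation of ARS-UCD2.0. Its levels at 48 h were 10.53, 9.91 and 10.24 in CNT and 9.31, 8.67 and 8.80 in NC glands of cows 1, 2 and 3. Again no CNT gland reached down to the NC glands, with a log2 fold change of 1.30 (SE 0.22, adjusted p = 0.0115). At 24 h, C1S was at 9.47 and 9.31 in CNT and at 9.61 and 9.68 in NC glands of cows 4 and 5, slightly lower in both CNT glands (log2 fold change -0.25, standard error 0.17, adjusted p = 0.458). Without cow 2 or cow 3, neither gene kept its 48 h call. The adjusted p was then 0.122 and 0.103 for C1R and 0.107 and 0.146 for C1S. With the NC array of cow 2 or cow 3 left out, C1S fell short too (adjusted p = 0.0559 and 0.0510), at log2 fold changes of 1.17 and 1.24.

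C1QA, a chain of the recognition molecule C1q, had levels of 11.23, 10.12 and 10.40 in CNT glands and of 9.74, 8.50 and 9.49 in NC glands of cows 1, 2 and 3 at 48 h. It was higher in the CNT gland of all 3 cows, and the groups did not overlap. This log2 fold change of 1.34 (SE 0.41) did not pass (adjusted p = 0.0864), but did with cow as a block (adjusted p = 0.0142) and in 1 fit of all 20 arrays (adjusted p = 0.0401). At 24 h C1QA lay between 9.12 and 9.58 in the CNT and NC glands. C2, the substrate of C1s, stayed between 7.08 and 7.71 in all 20 glands on the probe set with the higher mean. Its log2 fold change was -0.20 (95% confidence interval -0.65 to 0.24) at 24 h and 0.13 (-0.20 to 0.47) at 48 h. The second C2 probe set, at 6.28 to 6.92, was below the array median on every array and was not tested. C2 and CFB are neighbouring genes, with none between them that codes for protein, and in the 20 glands C2 covered a far narrower range than CFB.

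In the alternative pathway, CFB encodes the protease of the C3-cleaving enzyme. At 24 h its levels were 13.0 and 13.45 in the CNT and 9.23 and 9.47 in the NC glands of cows 4 and 5. The difference was similar in the 2 cows and far larger than the spread within either group (log2 fold change 3.88, standard error 0.21, adjusted p = 0.00183). At 48 h the levels were 12.59, 12.65 and 13.16 in CNT and 10.29, 8.51 and 8.53 in NC glands of cows 1, 2 and 3. The NC gland of cow 1 stood above the NC glands of the other cows, and the rise in cow 1 was the smallest. CFB was higher in 3 of 3 cows, and its log2 fold change was 3.69, with a standard error of 0.91 and an adjusted p of 0.0465.

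The 24 h call of CFB held with any single CNT or NC array left out. It was lost without cow 4 or cow 5, at log2 fold changes of 3.98 and 3.77. In those fits 1 array per group remains at 24 h, and the spread is taken from the arrays of 48 h. The 48 h call was closer to the threshold. It was lost when any single NC or CNT array was left out (adjusted p from 0.0651 to 0.136), without cow 2 (0.226) or cow 3 (0.162), and after median centring (0.0506) or quantile normalization within the time point (0.0578).

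C3, the protein on which all pathways converge, has 3 probe sets. The brightest lay between 14.40 and 15.21 in all 20 glands, within little more than 1 of the highest value in the table (15.6), and whether the signal was near its ceiling there was not tested. On this probe set the log2 fold change of CNT against NC was 0.07 (95% confidence interval -0.64 to 0.78) at 24 h and 0.29 (-0.11 to 0.69) at 48 h. The middle C3 probe set lay between 12.98 and 14.73 and was called in no comparison. The dimmest C3 probe set read 8.29, 10.87 and 10.75 in CNT and 9.02, 9.27 and 8.31 in NC glands of cows 1, 2 and 3, so that it was lower in the CNT gland of cow 1 and higher in those of cows 2 and 3. Its log2 fold change of 1.11 (SE 0.61) did not pass (adjusted p = 0.286). It was called without cow 1 (2.02, adjusted p = 0.0331) and without the CNT array of cow 1 (1.95, adjusted p = 0.0382), and without cow 1 it was also called in CFPD against CNT glands (-2.17, adjusted p = 0.0342). No C3 probe set differed by more than 0.24 between CNT and NC glands at 24 h.

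C6, the 1 terminal component among the members, lay on opposite sides of the NC glands at the 2 time points. At 24 h its levels were 8.30 and 8.16 in the CNT and 9.24 and 10.30 in the NC glands of cows 4 and 5, lower in both cows. The log2 fold change of -1.54 (SE 0.44) did not pass (adjusted p = 0.114), but did with the cow as a block (adjusted p = 0.0152). That fit called 793 of all 13004 probe sets tested, against 311 without the block. At 48 h the levels were 8.88, 7.22 and 7.65 in CNT and 5.72, 6.09 and 5.89 in NC glands of cows 1, 2 and 3, higher in all 3 cows. This probe set exceeded the array median on only 2 of the 12 arrays of 48 h and did not pass the filter. Tested without a filter, its log2 fold change was 2.02 (SE 0.39, adjusted p = 0.0220). In glands that were not challenged, C6 was thus at 9.24 and 10.30 in the cows sampled at 24 h and at or below 6.09 in those sampled at 48 h, and time and cow cannot be told apart. The second C6 probe set stayed between 3.65 and 5.17, below the array median on all arrays, and showed neither difference (0.11 at 24 h and -0.53 at 48 h).

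Of the regulators, CD55 is a membrane protein that speeds the decay of the C3-cleaving enzymes. At 24 h its levels were 8.38 and 10.82 in the CNT glands of cows 4 and 5, and 5.77 and 5.82 in their NC glands. The CNT glands differed from each other by more than 2 on the log2 scale, and both were far above the NC glands. This is a log2 fold change of 3.81, with a standard error of 0.68 and an adjusted p of 0.0405. CD55 exceeded the array median at 24 h only on these 2 CNT arrays, which is what let it pass the filter. With either NC array left out the adjusted p was 0.178, and without cow 5 it was 0.0696 at a log2 fold change of 2.61. Without the CF and CFPD glands of cow 4, which enter the estimate of the spread, it was 0.0797.

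At 48 h, CD55 was at 6.96, 7.55 and 7.87 in CNT and at 5.46, 4.81 and 5.59 in NC glands of cows 1, 2 and 3. Each CNT gland was above the NC gland of its cow by at least 1.5, but the levels were mostly below the array median and the filter removed the probe set. Without the filter its log2 fold change was 2.17 (SE 0.26, adjusted p = 0.00255).

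C4BPA encodes the alpha chain of C4b-binding protein, an inhibitor of the classical pathway. At 48 h its levels were 11.23, 12.34 and 13.02 in CNT and 9.25, 6.85 and 7.61 in NC glands of cows 1, 2 and 3. The rise exceeded 5 in cows 2 and 3 and was close to 2 in cow 1, whose NC gland was the highest. With a log2 fold change of 4.29 (SE 1.05, adjusted p = 0.0462), C4BPA had the largest rise of the members at 48 h. Like that of CFB, this call was lost when any single NC or CNT array was left out (adjusted p from 0.0651 to 0.140), without cow 2 (0.209) or cow 3 (0.189), and after median centring (0.0506) or quantile normalization (0.0582). At 24 h C4BPA was at 11.88 and 11.89 in CNT and at 10.42 and 10.82 in NC glands of cows 4 and 5. Its log2 fold change of 1.26 (SE 0.44) did not pass (adjusted p = 0.168), but did with the cow as a block (adjusted p = 0.0364). C4BPA was higher in the NC glands of the 24 h cows than in those of all 48 h cows. C4BPB, which encodes the beta chain of the same protein, read 3.26 to 3.96 and was below the median on every array.

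SERPING1 encodes the C1 inhibitor, which inactivates C1r and C1s. At 48 h its brighter probe set was at 12.92, 11.84 and 12.15 in CNT and at 12.00, 10.85 and 11.05 in NC glands of cows 1, 2 and 3. Each cow showed a rise of about the same size, between 0.9 and 1.1, although the groups overlapped because the NC gland of cow 1 was high. Averaged, the log2 fold change of 1.0 (SE 0.46) did not pass (adjusted p = 0.209), but did with the cow as a block (adjusted p = 0.0302). At 24 h the probe set was 0.6 higher in the CNT gland of cow 4 and 0.3 lower in that of cow 5. The other SERPING1 probe set gave 0.19 at 24 h and 0.92 at 48 h, neither of which was called.

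**Figure D2:**
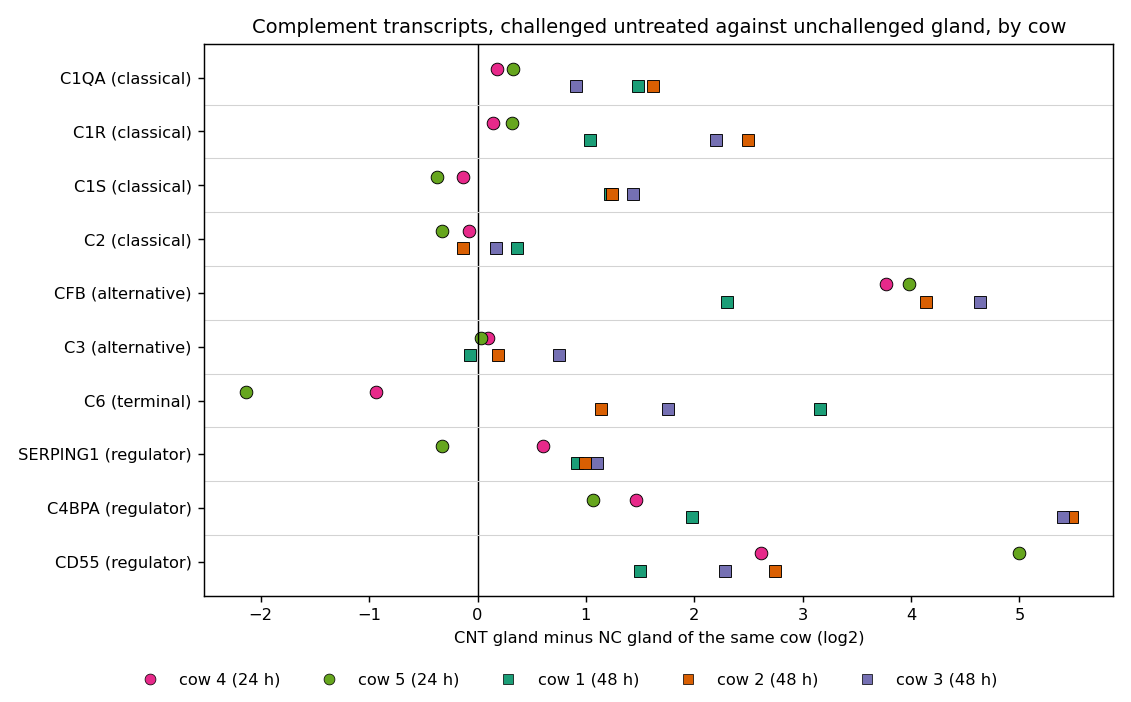
Difference in RMA level (log2, horizontal axis) between the CNT and the NC gland of the same cow, for each of the 10 genes. Each point is 1 cow (circles 24 h, squares 48 h). C1R and C1S lie right of 1 in the 3 cows of 48 h and between -0.4 and 0.4 in the 2 cows of 24 h, C6 lies left of 0 at 24 h and right of 1 at 48 h, and CFB lies right of 2 in all 5 cows.

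By role, the median difference between CNT and NC at 24 h (log2) was 0.01 over the 4 classical genes, 1.97 over CFB and C3, -1.54 for C6 and 1.26 over the 3 regulators. At 48 h it was 1.32, 1.99, 2.02 and 2.18. The alternative pair is a high and a flat gene at both time points, so that its median describes neither. The medians for C6 and the regulators at 48 h include the 2 probe sets that did not pass the filter.

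Whether the response to challenge differed between 24 h and 48 h was tested in 1 fit of all 20 arrays, and sets cows 4 and 5 against cows 1, 2 and 3. No member was called, nor was any of the 13486 probe sets tested (0%), of which 1052 had an unadjusted p under 0.05. With the cow as a block, C1S and C6 were called. Without the CNT array of cow 1, C1R was called (2.01, adjusted p = 0.0284), and without the CNT array of cow 4, CD55 was (-2.85, adjusted p = 0.0124). For C1S the response at 48 h exceeded that at 24 h by 1.55 (95% confidence interval 0.88 to 2.23, adjusted p = 0.177, and 0.0166 with the block). For C6 the difference was 3.56 (2.16 to 4.95, adjusted p = 0.120, and 0.0458 with the block). C1R gave 1.68 (0.89 to 2.48) with an adjusted p of 0.185, and 0.0694 with the block. The response of CFB differed by -0.19 between the time points, with an interval from -2.81 to 2.43. C4BPA gave 3.03 (-0.09 to 6.15) and CD55 -1.63 (-3.09 to -0.17), with adjusted p-values of 0.656 and 0.585.

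Treated glands were then compared with CNT glands, to see how the transcripts stood after intramammary treatment. These comparisons share the CNT arrays with that of CNT against NC, so the CNT levels enter both. At 24 h, CFB was at 8.96 and 8.78 in the CF and at 9.14 and 9.35 in the CFPD glands of cows 4 and 5, all below the CNT gland of the same cow by close to 4 or more. Against CNT, CFB gave a log2 fold change of -4.36 for CF (SE 0.21, adjusted p = 0.00144) and of -3.98 for CFPD (SE 0.21, adjusted p = 0.00238). CD55 was at 5.35 and 5.92 in CF and at 5.55 and 5.75 in CFPD glands, all near the NC glands. It was lower than in CNT glands by a log2 fold change of -3.96 in CF (SE 0.68, adjusted p = 0.0389) and of -3.95 in CFPD glands (SE 0.68, adjusted p = 0.0476).

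CFB and CD55 were the members called lower at 24 h, 2 of 13 in each comparison, where 1.59% of all probe sets tested were called lower in CF and 1.04% in CFPD glands. Here too CD55 was among the 13 only because of its level in the CNT glands, and CFB alone was called under the filter on the mean. Both calls stood with the CF and CFPD labels of cow 4 exchanged (adjusted p = 0.00398 and 0.0438 in CF, 0.00244 and 0.0379 in CFPD). Without the CF and CFPD glands of cow 4, CFB kept its calls and CD55 lost both (adjusted p = 0.203 and 0.215). CFB lost its calls without cow 4 or cow 5 (adjusted p of at least 0.257), and CD55 without cow 5 (0.0637 and 0.0981) or without either CF array in the CF and either CFPD array in the CFPD comparison (0.141 to 0.205). The CD55 call in CFPD also fell just short without the filter or with median centring (adjusted p = 0.0514 in both), and with a trended and robust prior (0.0504).

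C6 was at 9.51 and 10.29 in the CF and at 9.25 and 10.12 in the CFPD glands of cows 4 and 5, all above the CNT and alongside the NC glands. Its log2 fold changes against CNT of 1.67 and 1.46 did not pass (adjusted p = 0.0970 and 0.152), but did with the cow as a block (0.0121 and 0.0213). The log2 fold changes of C4BPA against CNT, -1.78 in CF (adjusted p = 0.0860) and -1.77 in CFPD (adjusted p = 0.103), passed with the block as well (0.0134 and 0.0164). The remaining members differed from the CNT glands by up to 0.52 at 24 h, and none was called.

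At 48 h, C1R was at 8.97, 8.55 and 8.71 in the CF and at 8.96, 8.98 and 8.75 in the CFPD glands of cows 1, 2 and 3. All 6 lay more than 1 below the lowest CNT gland. Against CNT, C1R gave a log2 fold change of -1.95 in CF (SE 0.25, adjusted p = 0.00347) and of -1.79 in CFPD glands (SE 0.25, adjusted p = 0.00702). C1S was at 9.40, 8.93 and 9.12 in CF and at 9.21, 8.80 and 9.12 in CFPD glands, also below every CNT gland. It gave a log2 fold change of -1.08 in CF (SE 0.22, adjusted p = 0.0324) and of -1.18 in CFPD glands (SE 0.22, adjusted p = 0.0254).

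These were 2 of 11 members in each comparison, where 1.5% of all probe sets tested were called lower in CF and 1.05% in CFPD glands. Both genes kept their calls with the labels of cow 1 exchanged. Without the CF and CFPD glands of cow 1, C1S in CFPD fell short (adjusted p = 0.0523). C1R lost its calls without cow 2 or cow 3 (adjusted p from 0.103 to 0.204 over the 3 comparisons with CNT glands). C1S was the less stable, since it lost the call in CF in 7 of 9 and in CFPD in 8 of 9 fits that each left out 1 array or cow, with an adjusted p of up to 0.200 and 0.223. With quantile normalization within the time point its adjusted p was 0.0693 in CF and 0.0566 in CFPD, and with median centring 0.0554 in CF.

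CFB and C4BPA were more variable in treated glands at 48 h. CFB was at 11.59, 8.69 and 9.23 in the CF and at 11.76, 10.95 and 8.26 in the CFPD glands of cows 1, 2 and 3. C4BPA was at 11.18, 7.28 and 9.11 in CF and at 11.19, 10.68 and 7.87 in CFPD glands. The same glands were high for both genes, namely both treated glands of cow 1 and the CFPD gland of cow 2, and there C4BPA in cow 1 was within 0.1 of the CNT gland of that cow. In these 3 glands C1R lay between 8.96 and 8.98 and C1S between 8.80 and 9.40, in the range of the NC glands or within 0.1 of it. Against the NC gland of cow 2, its CFPD gland was higher by 0.46 in C1R and 0.14 in C1S. It was also higher by 1.04 in C1QA and by 1.08 in the brighter SERPING1 probe set. In the treated glands of cow 1 the same genes differed from its NC gland by -0.22 to 0.33. C4BPA was also 1.5 above the NC gland in the CF gland of cow 3.

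All treated glands were below the CNT gland of the same cow for CFB and C4BPA, but neither gene passed. For CFB the log2 fold change was -2.96 in CF (SE 0.91, adjusted p = 0.112) and -2.47 in CFPD (SE 0.91, adjusted p = 0.186). For C4BPA it was -3.0 in CF (SE 1.05, adjusted p = 0.149) and -2.28 in CFPD (SE 1.05, adjusted p = 0.272). With the cow as a block, CFB in CF passed (adjusted p = 0.0280) and CFB in CFPD did not (0.0563). CFB in CF also passed without the CF and CFPD glands of cow 1 (log2 fold change -3.84, adjusted p = 0.0319), without the CF array of cow 1 alone (adjusted p = 0.0418) and in 1 fit of all 20 arrays (adjusted p = 0.0463). With CF and CFPD as 1 group, CFB passed too (-2.72, adjusted p = 0.0480).

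**Figure D3:**
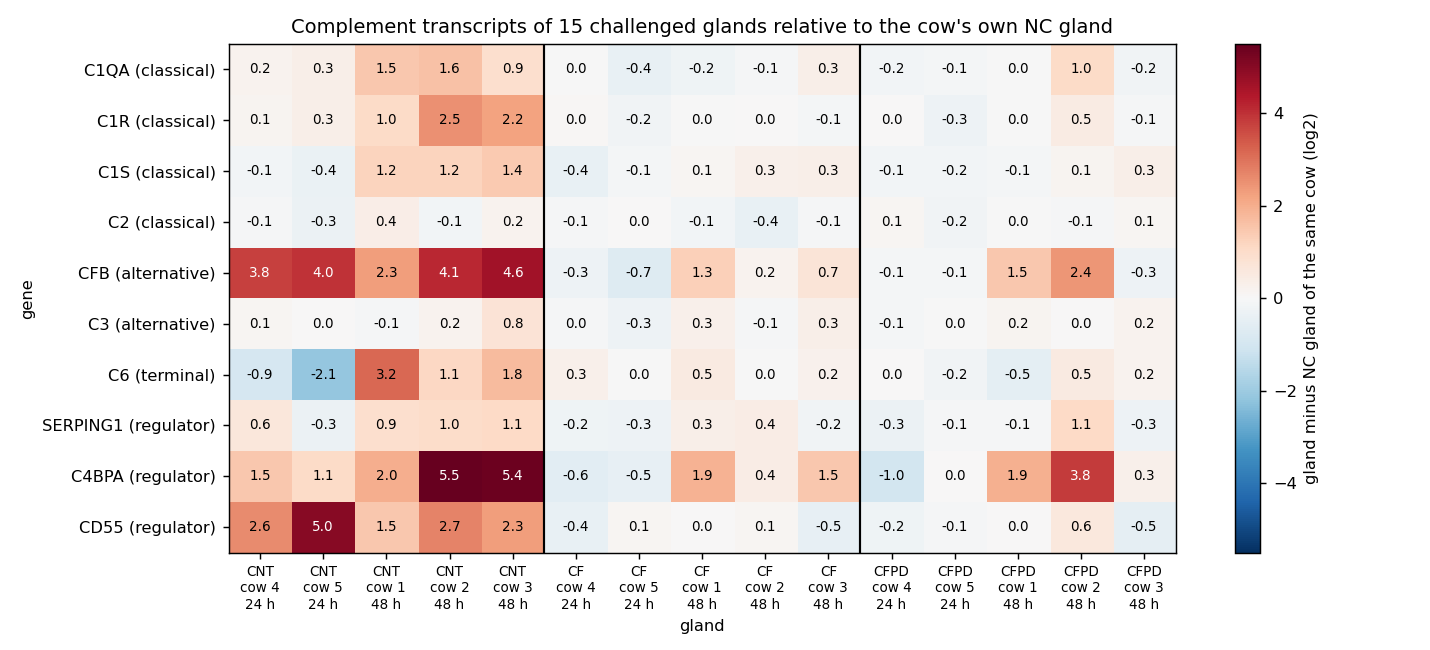
Level of each gene in the 15 challenged glands minus that in the NC gland of the same cow (log2, colour scale from -5.5 to 5.5, values printed in the cells). Columns are glands, grouped as CNT, CF and CFPD, and rows are genes. In the treated glands of 24 h no cell exceeds 1.1 in size, whereas at 48 h CFB and C4BPA are above the NC gland by 1.3 or more in both treated glands of cow 1 and in the CFPD gland of cow 2.

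Of the other members, C1QA had log2 fold changes against CNT of -1.33 in CF (adjusted p = 0.115) and -1.06 in CFPD (adjusted p = 0.212), and passed in both with the cow as a block (0.0179 and 0.0463). The dimmer SERPING1 probe set passed with the block in CF (log2 fold change -1.05, adjusted p = 0.0403). C6 and CD55, which did not pass the filter at 48 h, were lower in every treated gland than in any CNT gland. Tested without the filter, CD55 gave -2.27 in CF (adjusted p = 0.00195) and -2.13 in CFPD (adjusted p = 0.00330), and C6 gave -1.78 in CF (adjusted p = 0.0465) and -1.97 in CFPD (adjusted p = 0.0368). C2 and the brightest C3 probe set differed from CNT glands by no more than 0.35.

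**Figure D4:**
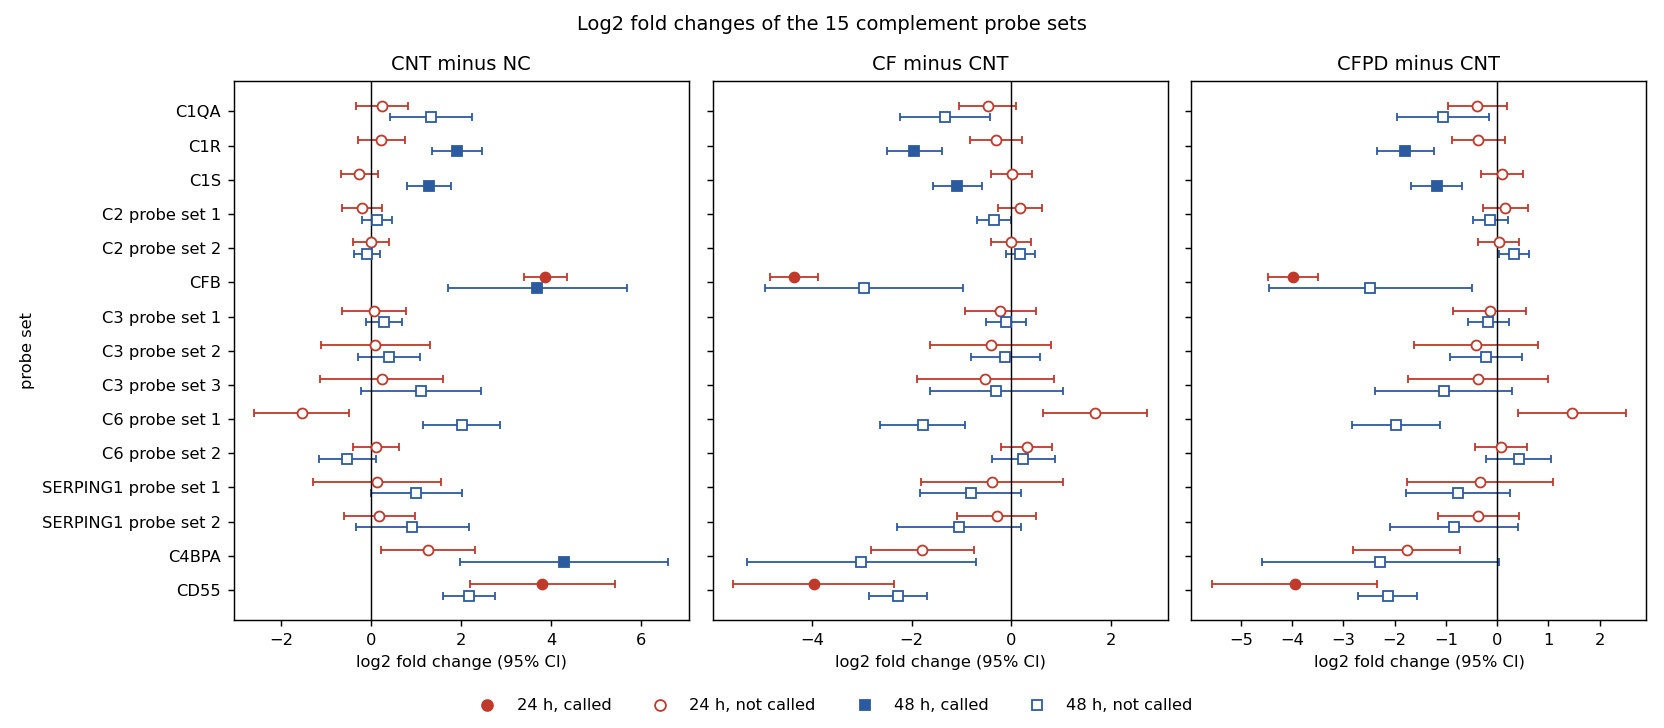
Log2 fold changes (horizontal axis) of all 15 probe sets with 95% confidence intervals, for CNT against NC, CF against CNT and CFPD against CNT glands, at 24 h (circles) and 48 h (squares). Filled symbols were called. The intervals of CFB are much wider at 48 h (1.70 to 5.68 for CNT against NC) than at 24 h (3.39 to 4.36), and open symbols for CD55 and C6 at 48 h are probe sets that did not pass the filter.

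Neither treatment left a member that was called against the NC glands, at 24 h or at 48 h. No probe set at all was called for CF or CFPD against NC (0% in each comparison). At 24 h, 106 probe sets in CF and 258 in CFPD had an unadjusted p under 0.05, and at 48 h these were 82 and 43. The largest difference among the members at 24 h was that of C4BPA, at -0.52 in CF (95% confidence interval -1.56 to 0.52) and -0.50 in CFPD glands (-1.54 to 0.53). At 48 h the intervals were wide for CFB and C4BPA. CFB stood at 0.73 (-1.26 to 2.72) in CF and at 1.22 (-0.77 to 3.2) in CFPD, and C4BPA at 1.29 (-1.02 to 3.59) and 2.01 (-0.29 to 4.32). C1R and C1S at 48 h lay within about 0.2 of the NC mean in both treatments, with intervals that stayed between -0.59 and 0.71.

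The comparison of CFPD with CF glands asks what prednisolone added. No member and no probe set was called at either time point (0% in both), and 67 probe sets at 24 h and 21 at 48 h had an unadjusted p under 0.05. At 24 h CFB was higher in the CFPD gland of both cows, by 0.38 (95% confidence interval -0.11 to 0.86, adjusted p = 1.0). With the labels of cow 4 exchanged the cows differ in direction. At 48 h the interval of C1R (0.16, -0.40 to 0.71) was narrower than those of CFB (0.49, -1.5 to 2.47) and C4BPA (0.72, -1.58 to 3.03). Differences of several fold in the latter genes were not detectable with 3 cows. No member was called in this comparison with the labels exchanged or under the other alternatives.

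Other genes of the pathway were read from a list of 33 further components, regulators and receptors, of which 28 have a probe set. Of these 28, 13 were below the array median on all 20 arrays, among them the terminal genes C5, C8A, C8B and C9 and the lectin pathway genes MBL1, MBL2, MASP1 and MASP2. In CNT against NC glands, none of the 14 genes tested was called at 24 h, and 3 of 15 were called at 48 h, all higher. Among all probe sets tested, 1.62% were called higher at 24 h and 2.15% at 48 h. The median difference between CNT and NC glands over all 28 genes, the 13 that were below the array median included, was 0.01 at 24 h and 0.13 at 48 h (log2).

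The 3 called genes were VSIG4, a complement receptor of macrophages that binds C3 fragments, FCN1, a recognition molecule of the lectin pathway made by myeloid cells, and ITGB2, the beta chain of the leukocyte integrins that include complement receptors. VSIG4 was at 8.18 ± 0.47 (SD, n = 3) in CNT and 6.42 ± 0.47 (SD, n = 3) in NC glands (log2 fold change 1.77, standard error 0.37, adjusted p = 0.0253). FCN1 rose by 1.75 (SE 0.35, adjusted p = 0.0228) and ITGB2 by 1.48 (SE 0.25, adjusted p = 0.0111). Under the deposited labels, all 3 were called lower in CF than in CNT glands at 48 h, and FCN1 and ITGB2 in CFPD glands too. Over all probe sets tested, 1.5% were called lower in CF and 1.05% in CFPD glands. VSIG4 and FCN1 passed the filter at 48 h only through the CNT glands in which they were high. In the other glands VSIG4 reached at most 7.25 and FCN1 at most 7.15, so that their place in these counts was fixed by that. VSIG4 in CFPD glands, at 6.0 to 7.25, lay below the lowest CNT gland (7.76) but was not called (log2 fold change -1.58, SE 0.37, adjusted p = 0.0606). The regulators CFI and CLU had larger log2 fold changes in CNT against NC glands at 48 h than the 3 called genes. These were 2.85 (SE 1.08, adjusted p = 0.138) and 2.03 (SE 0.53, adjusted p = 0.0546), and neither was called. C1QB and C1QC, the partner chains of C1QA, had log2 fold changes of 0.92 and 1.11 at 48 h (adjusted p = 0.171 and 0.119), beside 1.34 for C1QA. C7, which follows C6 in the membrane attack complex, gave -0.67 at 24 h and 1.0 at 48 h (adjusted p = 0.280 and 0.180), the same signs as C6.

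In such whole tissue, a change in the number of cells of a type and a change in RNA per cell cannot be told apart. Of 9 neutrophil markers, 5 have a probe set and 4 were tested, and all 4 (S100A8, S100A9, S100A12 and CXCR1) were called higher in the CNT glands at 24 h and at 48 h. Their summed level was 9.58 to 10.28 in NC and 13.44 to 15.33 in CNT glands at 24 h, and 9.04 to 10.10 and 12.91 to 14.37 at 48 h. Of 5 macrophage markers tested, none was called at 24 h and CD68 and CSF1R were called higher at 48 h. The summed level of the macrophage list was 11.19 to 12.02 in NC and 12.69 to 13.95 in CNT glands at 24 h, and 12.79 to 12.98 in NC and 13.00 to 13.50 in CNT glands at 48 h. VWF, a marker of endothelium, was below the array median on all arrays. None of the 5 fibroblast, 5 T and NK cell and 3 endothelial markers tested at 24 h was called, nor any at 48 h, and of 6 markers of secretory epithelium BTN1A1 was called lower at 24 h. The summed level of the fibroblast list was 11.23 to 11.97 in NC and 10.42 to 11.17 in CNT glands at 24 h, lower in CNT with no overlap. At 48 h it was 11.38 to 11.87 in NC and 11.19 to 13.34 in CNT glands, which overlap. That of the secretory epithelium was 17.43 to 17.48 in NC and 17.26 to 17.27 in CNT glands at 24 h, and 17.48 to 17.55 and 17.14 to 17.31 at 48 h, lower in CNT glands at both time points. The part of these cells in the complement values was not tested. At 48 h the summed neutrophil level was 9.45 to 10.44 in CF and 10.08 to 10.34 in CFPD glands, reaching above the 10.10 of the NC glands. The summed macrophage level was 12.17 to 13.26 in CF and 12.42 to 12.97 in CFPD glands. Whether these levels bear on the treated glands in which CFB and C4BPA were high was not tested.

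Genes known to respond to interferon or to IL-6 and STAT3 were read as lists as well, beside the 1.62% at 24 h and 2.15% at 48 h of all probe sets that were called higher in CNT glands. Of 6 interferon-stimulated genes tested at 24 h, 2 (MX1 and PSMB9) were called higher, and of 7 tested at 48 h, 3 (ISG15, PSMB8 and GBP1). Of 9 and 7 IL-6 and STAT3 targets tested, 4 (HP, LBP, SAA3 and SOCS3) and 3 (HP, LBP and STAT3) were called higher, and the others of both lists did not pass.

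Over the 20 arrays, which share cows and groups, the members followed each other to different degrees. Pearson's r was 0.827 between CFB and C4BPA, 0.790 between CFB and CD55 and 0.770 between C1R and C1S. It was -0.040 between CFB and C6 and -0.101 between CFB and its neighbour C2. Among 8672 probe sets with a symbol, CFB was followed most closely by S100A2 (r = 0.956), PLAU and MT1A, and CD55 by LOC407171 (r = 0.965), IL1R2 and TMEM156. C4BPA was followed by LBP (r = 0.923), ANP32B and IL13RA1, C1R by LRRC2 (r = 0.919), SLC1A1 and PTP4A2, and C1S by IGFBP4 (r = 0.876), WWP1 and RBBP6. No gene was among the 3 closest of more than 1 member.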

How the data were processed

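RNA of 20 glands was hybridised to Affymetrix bovine arrays. RMA, run by the authors in the package affy, gave the deposited log2 values. The versions, and whether both time points were normalized together, are not given in the sources used here. Groups, cows and times follow the sample labels. Probe sets were named by the platform annotation of 2016. Of 24128 probe sets, 112 controls were left out, and those above the array median on at least 2 arrays (24 h) or 3 arrays (48 h) were tested, 13004 and 13000 in number.

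For each time point, limma 3.58.1 (R 4.3.3) was fitted to all 4 groups without a term for the cow, since the methods of the study name none. P-values were adjusted by Benjamini and Hochberg over all probe sets tested in a comparison, and standard errors and intervals use moderated variances. The residual degrees of freedom were 4 and 8, to which the prior added 3.05 and 3.38, and the number of arrays limits every value. The glands of a cow come from the same animal, so the cow pairs them. Their deviations from the group means had a mean correlation within cows of 0.521 (24 h) and 0.448 (48 h).

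All probe sets of the members are described, the one with the highest mean standing for a gene. Of the wider complement list, called genes are named, at most 6 per comparison, and for each member called in CNT against NC the 3 probe sets of highest correlation. The members and lists were chosen with earlier results of these data known. The fits were run on simulated data with independent noise and no effect of the cow. That run therefore says nothing on the pairing of glands within cows. The alternatives were the cow as a block, all arrays in 1 fit, other filters, thresholds, priors and normalizations, an exchange of CF and CFPD in cows 1 and 4, CF and CFPD as 1 group, and the omission of each array or cow in turn. Leaving out the CF and CFPD arrays of cows 1 and 4 was added after seeing the data.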

Additional observations from a re-analysis of the deposited data

Results flagged for a closer look

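The response of C1S to challenge (CNT minus NC) differed between the cows of 48 h and those of 24 h by 1.55 on the log2 scale when the cow was a block in the fit of all arrays (adjusted p = 0.0166 from limma, against 0.177 without the block). It was -0.25 at 24 h, lower in 2 of 2 cows, and 1.30 at 48 h, higher in 3 of 3 cows. For C6 the difference was 3.56 (adjusted p = 0.0458 with the block and 0.120 without it). It was -1.54 at 24 h, lower in 2 of 2 cows, and 2.02 at 48 h, higher in 3 of 3 cows. Different cows were sampled at the 2 time points, so that time and cow cannot be told apart.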

How the results depend on the processing

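No called member changed direction under any alternative. Of 253 values of called members under the alternatives, 183 kept the call and 70 lost it. Of 241 counts of called members, 182 stayed within 1.5 times the reported count. With the cow as a replicate block, 4 members instead of 2 were called at 24 h in CNT against NC, in CF against CNT and in CFPD against CNT, 5 instead of 2 in CF against CNT at 48 h, and 2 instead of 0 for the difference between the time points. The block moved no other count by more than 1.5 times. Among all 13004 probe sets tested at 24 h, it raised the calls in CNT against NC from 311 to 793. In CF against CNT they rose from 278 to 768, and in CFPD against CNT from 182 to 646. Without the filter, 1 member was called in CFPD against CNT at 24 h, and 4 in CF against CNT and in CFPD against CNT at 48 h, where C6 and CD55 are added. With a filter on the mean, which removes CD55, 1 was called in each of the 3 comparisons of 24 h with CNT glands. Median centring left 1 in CFPD against CNT at 24 h, 2 in CNT against NC and 1 in CF against CNT at 48 h. Quantile normalization within the time point left 2 in CNT against NC and 1 each in CF and CFPD against CNT at 48 h, and a trended and robust prior left 1 in CFPD against CNT at 24 h. With CF and CFPD as 1 group, 4 were called against CNT at 24 h, where 593 of all 13004 probe sets tested were called. Without the CF and CFPD arrays of cows 1 and 4, 1 was called in each of the 3 comparisons with CNT glands at 24 h and 1 in CFPD against CNT at 48 h. Leaving out single arrays or cows gave 0 to 2 called members in each of the 3 comparisons at 24 h. At 48 h it gave 0 to 5 in CNT against NC, 0 to 3 in CF against CNT and 0 to 2 in CFPD against CNT, and 0 to 1 for the difference between the time points. Exchanging the labels of cows 1 and 4 moved no count by more than 1.5 times. CFPD against CF, and CF and CFPD against NC, had 0 members called under each alternative run.

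With 2 or 3 cows per time point the intervals of the variable genes are wide. The fits without cow 4 or cow 5 rest on a single array per group at 24 h and borrow the spread of the arrays of 48 h. At 48 h the calls of CFB and C4BPA lie close to the threshold. The brightest C3 probe set lies close to the highest value in the table, and whether its signal was near its ceiling was not tested.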
